A study of Mus musculus with 32 samples.

Results

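The genes described here encode the receptors for glutamate, the transporters that load it into vesicles, and the scaffolds and adhesion molecules of the excitatory postsynapse in mouse. They were listed by name and function, but with earlier results of these data known. The list holds 40 genes, 21 of them receptor subunits, all found among the 52636 gene entries of the RNA-seq files. The cells were hybrid mouse embryonic stem cells (ESCs, day 0), cultured with 10% serum and the cytokine LIF, and neurons induced from them (iNs, day 10) with doxycycline, which switches on a TetO-Ngn2 transgene for the proneural factor Neurog2. Each cell type was measured with a maternal deletion of the imprinted microRNA cluster that runs from miR-379 to miR-410 on chromosome 12 (genotype Mirg(Delta/+)) and as control cells with a floxed, undeleted cluster (Mirg(fl/+)), with 3 RNA-seq libraries per group. The 4 groups were therefore deletion iNs, control iNs, deletion ESCs and control ESCs, and the transgene system was common to all of them. A further 8 libraries of Ago2 CLIP, which maps the RNA bound by the microRNA effector Argonaute 2, came from iNs with HA-tagged or untagged Ago2 (2 libraries each of immunoprecipitate and input). The titles of these 8 give no Mirg genotype. The labels do not say whether a genotype is represented by 1 clone, so clone and genotype cannot be told apart.

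Fast excitatory transmission runs through ion channels built from AMPA, NMDA and kainate receptor subunits, while the metabotropic receptors signal through G proteins and tune release and excitability. Glutamate reaches these receptors from vesicles filled by vesicular transporters. On the receiving side, Dlg proteins hold receptors and neuroligins at the membrane, Dlgap proteins tie them to Shank proteins deeper in the density, and Homer proteins link Shank to metabotropic receptors. MicroRNAs guide Argonaute to messenger RNAs by pairing of their seed (bases 2 to 8), which lowers the stability or translation of the bound RNA.

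In the authors' list of CLIP regions matched to cluster microRNAs, 4 of the 40 genes held a match: Slc17a6, Nlgn2, Dlg3 and Dlg4. The mature microRNAs matched to them are shown first, because their counts were lost with the deletion; capitals mark the seed, and the sequences are from RefSeq on GRCm38.p6. The first 4 were matched to Slc17a6, and those named miR-495-3p, miR-300-5p and miR-3072-3p to Nlgn2, Dlg3 and Dlg4 in that order.
miR-409-3p: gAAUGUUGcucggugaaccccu
miR-299a-3p: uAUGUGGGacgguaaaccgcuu
miR-376b-5p: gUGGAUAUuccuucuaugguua
miR-376c-5p: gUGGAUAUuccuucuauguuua
miR-495-3p: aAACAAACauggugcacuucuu
miR-300-5p: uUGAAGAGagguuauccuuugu
miR-3072-3p: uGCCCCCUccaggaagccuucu
The seeds of miR-376b-5p and miR-376c-5p are identical, and the other 5 differ from them and from each other. The authors' list names miR-299-3p, and the sequence and counts given are those of miR-299a-3p. Mir3072 lies beyond Mir410, outside the named ends of the cluster, and its counts also fell to 0 with the deletion.

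All 7 of these microRNAs were present in control iNs, at 52 to 8179 counts per library. MiR-409-3p was the most abundant, with 8, 6 and 11 counts in the deletion iN small RNA libraries, against 8179, 7081 and 7758 in the control iN libraries. MiR-376b-5p had 2 to 3 counts in deletion iNs and 2443 to 2771 in control iNs, and miR-299a-3p had 1 to 2 and 494 to 663. MiR-300-5p, miR-3072-3p, miR-495-3p and miR-376c-5p had 0 counts in every deletion iN library, against 178 to 200, 78 to 104, 60 to 77 and 52 to 64 in the control iN libraries. The libraries of the 2 genotypes do not overlap for any of the 7.

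The 12 RNA libraries held 14904735 to 21499106 counts. Transcripts of Mirg, the gene that hosts the cluster, gave 2, 0 and 2 counts in deletion iNs against 455, 685 and 648 in control iNs, and 0 in each deletion ESC library against 672 to 932 in control ESCs, as the labels state. The iNs carried all 13 pan-neuronal markers above 0.1 TPM (a level per transcript length, scaled to the same total in each library), at a summed 3968 to 4485 TPM in deletion iNs and 3201 to 3944 TPM in control iNs. Gad2 and Slc32a1, which define GABAergic neurons, and Gfap, Aqp4, Slc1a3 and Gja1, which mark astrocytes, averaged under 0.1 TPM in both iN groups. The whole 7-gene lists were not empty: the GABAergic one summed to 23.2 to 28.7 TPM in deletion iNs and 25.7 to 32.1 TPM in control iNs, and the astrocyte one to 3.4 to 4.18 TPM and 2.61 to 3.02 TPM. The 11 stem cell markers summed to 5.07 to 5.87 TPM in deletion iNs and 7.39 to 9.45 TPM in control iNs, against at least 2070 TPM in each ESC library. In these bulk samples fewer cells of a type and less RNA per cell cannot be told apart.

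The comparison of deletion iNs with control iNs asks how the excitatory synapse genes differed between neurons of the 2 genotypes. More of these genes were higher than lower in deletion iNs. Of 39 genes tested, 21 rose, 4 fell and 14 did not pass an adjusted p of 0.05, so 64.1% were called, against 25.6% of all 16028 genes tested, of which 12.4% were higher and 13.3% lower (edgeR quasi-likelihood test with Benjamini-Hochberg adjustment over all genes, called edgeR adjusted p below). The median log2 fold change was 0.24 over the 39 and 0.00 over all genes, and 30 of the 39 values were positive, against 50.7% of all genes. Among genes with an average log2 CPM (CPM, counts divided by scaled library size) of at least 2, 24 of 37 were called, against 30.2% of all, and these were 20 higher and 4 lower, against 13.9% and 16.3%. Libraries of the 2 genotypes did not overlap for 28 of the 39, against 40.9% of all genes. Grm2, with 3 to 5 counts in deletion iN libraries and 1 to 8 in control iN libraries, was too low to test. The increases reached 2.48-fold, with Grin2b, Grik1, Grik3, Grid1 and Grm8 above 2-fold, and the largest decrease was that of Homer3, a change of -31.2%. In 12 alternative settings 21 of the 25 calls were always kept, 19 of them higher and 2 lower.

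**Figure D1:**
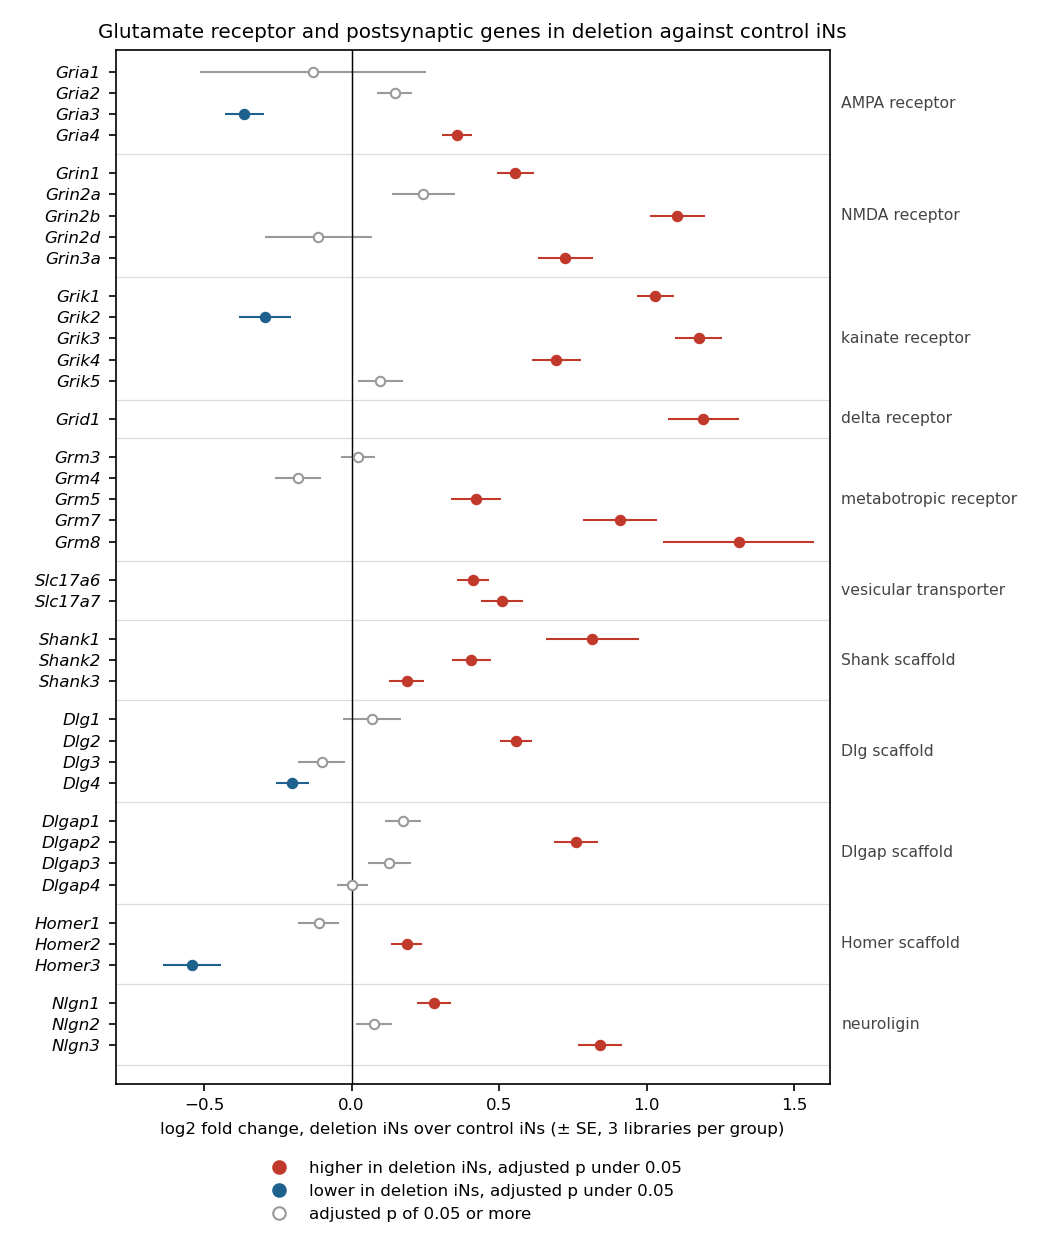
Log2 fold change of 39 genes in deletion iNs over control iNs (x axis; bars, SE; 3 libraries per group), grouped by class down the page. Red points mark the 21 higher genes and blue points the 4 lower ones at an edgeR adjusted p under 0.05, and open points the 14 others; the largest rises are in the kainate, delta and metabotropic receptors and the largest fall is Homer3.

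Some values that are not of these genes moved with the same groups. Neurog2, which the transgene encodes and whose counts may include transgene reads, had 648, 583 and 583 CPM in deletion iNs against 215, 214 and 240.5 CPM in control iNs (log2 fold change 1.44 ± 0.06, SE, edgeR adjusted p = 1.00e-09). It was singled out after its values were seen. Mitochondrial genes were less clear: they took 2.45 to 3.6% of counts in deletion iNs and 3.42 to 4.38% in control iNs, and these ranges overlap. For the marker lists that follow, the shares over all genes tested were 12.4% higher and 13.3% lower. Of the 7 GABAergic list genes only 3 could be tested, and all 3 were lower in deletion iNs. Gad1 of that list averaged under 0.1 TPM in control iNs but not in deletion iNs. Of 13 pan-neuronal markers 6 were higher and none lower. Of the 7 cholinergic and peripheral markers 4 were higher and 2 lower, of 5 stem cell markers tested 1 was higher and 3 lower, and of 4 neural progenitor markers tested 2 were higher and 1 lower. The astrocyte list had 1 higher and 1 lower of 3 tested, the proliferation list 1 higher of 5, the oligodendrocyte list 1 higher of 3, the fibroblast list 1 higher of 2, and the microglia list none of 1. The part of these differences in the gene changes below was not tested.

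Both vesicular glutamate transporters rose. Slc17a6, the transporter typical of subcortical neurons, had 173, 169 and 182 CPM in deletion iNs, against 129, 129.8 and 136 CPM in control iNs. Every deletion library was above every control library, and the difference was 0.41 ± 0.05 on the log2 scale (1.33-fold, SE, n = 3 per group, edgeR adjusted p = 4.93e-05). Slc17a7, the transporter typical of cortical neurons, had 66.2, 63.9 and 64.7 CPM in deletion iNs and 39.9, 47.3 and 49.4 CPM in control iNs. Its rise of 0.51 ± 0.07 (edgeR adjusted p = 8.57e-05) was of similar size, and 1 control library, replicate A, lay below the other 2. Per length, Slc17a6 made up 65.1% ± 1.03 of the transporter TPM in deletion iNs and 66.9% ± 2.14 in control iNs (SD, n = 3 each), so the balance between them was close in the 2 groups.

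The 4 AMPA receptor genes did not move together: Gria4 rose, Gria3 fell, and Gria1 and Gria2 were not called. Gria2 encodes the subunit that, once edited, makes AMPA receptors impermeable to calcium. It had 194, 199 and 205 CPM in deletion iNs and 182, 167 and 192 CPM in control iNs, a difference of 0.15 ± 0.06 that did not pass (edgeR adjusted p = 0.0814), although the libraries did not overlap. Gria4 had 190.5, 196 and 184 CPM in deletion iNs against 146, 149 and 149.6 CPM in control iNs, a gap many times the spread within either group. The Gria4 rise was 0.36 ± 0.05 (edgeR adjusted p = 1.07e-04). Gria3 went the other way, with 37.1, 32.2 and 35.1 CPM in deletion iNs and 46.2, 43.98 and 44.4 CPM in control iNs. That fall, -0.36 ± 0.07 (edgeR adjusted p = 8.80e-04), was also free of overlap. Gria1, the subunit best known from hippocampal plasticity, was nearly silent, at 0.406 to 0.959 CPM in deletion iNs and 0.523 to 0.870 CPM in control iNs.

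Among NMDA receptor genes, Grin1, Grin2b and Grin3a rose, and Grin2a and Grin2d were not called. Grin1 encodes the subunit that every NMDA receptor contains. It had 98.2, 87.7 and 91.5 CPM in deletion iNs and 59.97, 65.5 and 63.2 CPM in control iNs, a rise of 0.56 ± 0.06 (edgeR adjusted p = 1.04e-05). Grin2b, the glutamate-binding subunit that prevails early in brain development, had 22.6, 26.2 and 25.1 CPM in deletion iNs, against 10.8, 11.5 and 12.02 CPM in control iNs. With 2.15-fold (1.10 ± 0.09, edgeR adjusted p = 8.09e-07) it had the largest change of the class, and its lowest deletion library stood far above its highest control library. Grin3a, whose subunit binds glycine and lowers calcium entry, had 23.3, 21.9 and 24.9 CPM in deletion iNs and 15.7, 13.3 and 13.7 CPM in control iNs (0.72 ± 0.09, edgeR adjusted p = 4.67e-05). Grin2a, the subunit that becomes prominent as neurons mature, gave 14.8 to 16.6 CPM in deletion iNs and 11.99 to 15.3 CPM in control iNs, and Grin2d 3.01 to 4.26 and 3.55 to 4.36 CPM. Both sets of ranges overlap.

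Of the 5 kainate receptor genes, Grik1, Grik3 and Grik4 rose, Grik2 fell and Grik5 was not called. Grik1, a subunit that can form channels by itself, had 224, 208 and 232 CPM in deletion iNs against 102, 108 and 116 CPM in control iNs. The level was thus 2.04-fold that of control iNs (1.03 ± 0.06, edgeR adjusted p = 2.48e-08), with a spread within each group far below the gap. Grik3, a subunit of low glutamate affinity, had 31.1, 32.6 and 32.1 CPM in deletion iNs and 13.99, 13.3 and 15.2 CPM in control iNs. It rose by 1.18 ± 0.08 (edgeR adjusted p = 9.65e-08), again with no overlap. Grik4, which needs a partner subunit to form a channel, had 30.1, 34.4 and 32.5 CPM in deletion iNs and 18.8, 21.8 and 19.2 CPM in control iNs (0.69 ± 0.08, edgeR adjusted p = 2.27e-05). Grik2 was the exception in direction: it had 19.8, 19.7 and 21.1 CPM in deletion iNs, against 27.6, 24.4 and 22.3 CPM in control iNs. The difference of -0.29 ± 0.09 passed (edgeR adjusted p = 0.0248) but was lost in 4 of 12 alternative settings, with the fit of all 12 libraries and without control iN replicate A or deletion iN replicate A or B (edgeR adjusted p up to 0.0995). Grik5, the other subunit that needs a partner, was not called, at 78.7 to 94.1 CPM in deletion iNs and 75.2 to 90.3 CPM in control iNs.

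Per length, Grik1 made up 62.4% ± 0.115 of the kainate receptor TPM in deletion iNs and 47.7% ± 1.42 in control iNs (SD, n = 3 each), while Grik5 made up 22.5% ± 0.850 and 33.1% ± 1.64 and Grik2 5.44% ± 0.202 and 10.5% ± 2.09. The makeup of the class therefore leaned further to Grik1 in deletion iNs, with no overlap between the libraries of the 2 groups for these 3 genes. Shares are used for this because TPM itself was shifted between the groups: the median gene was 0.23 higher on the log2 scale in deletion iNs in TPM and 0.00 higher in the edgeR fit.

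Grid1, the delta receptor that binds cerebellins and organises synapses, had 10.8, 12.1 and 11.1 CPM in deletion iNs against 4.82, 5.14 and 4.88 CPM in control iNs. At 2.29-fold (1.19 ± 0.12, edgeR adjusted p = 4.45e-06) its deletion libraries all stood far above the control libraries.

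Of the 6 metabotropic receptors, Grm5, Grm7 and Grm8 rose, Grm3 and Grm4 were not called and Grm2 was not tested. Grm5, which couples to calcium release and binds Homer proteins, had 23.8, 26.7 and 25.9 CPM in deletion iNs and 17.6, 19.7 and 19.7 CPM in control iNs (0.42 ± 0.08, edgeR adjusted p = 0.00160). Grm7, a presynaptic receptor that restrains release, had 11.3, 9.76 and 9.43 CPM in deletion iNs, against 5.49, 5.47 and 5.28 CPM in control iNs (0.91 ± 0.12, edgeR adjusted p = 7.80e-05). The control libraries of Grm7 were nearly equal and the deletion libraries all stood well above them. Grm8, of the same group as Grm7, had the largest fold of all 39 genes at 2.48-fold (1.31 ± 0.26, edgeR adjusted p = 0.00151). Its level was low, however, with 56, 55 and 43 counts in deletion iNs and 21, 18 and 17 counts in control iNs, or 2.83, 2.90 and 2.18 CPM against 1.41, 0.849 and 0.987 CPM. Grm3, the most abundant metabotropic receptor per length, had 44.1, 45.9 and 43.5 CPM in deletion iNs and 43.8, 44.4 and 43.6 CPM in control iNs. Those 2 sets overlap, and the difference was 0.02 ± 0.06 (edgeR adjusted p = 0.828). Grm4 had 19.9 to 22.7 CPM in deletion iNs and 23.96 to 25.2 CPM in control iNs and did not pass (-0.18 ± 0.08, edgeR adjusted p = 0.107), although these ranges do not overlap.

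**Figure D2:**
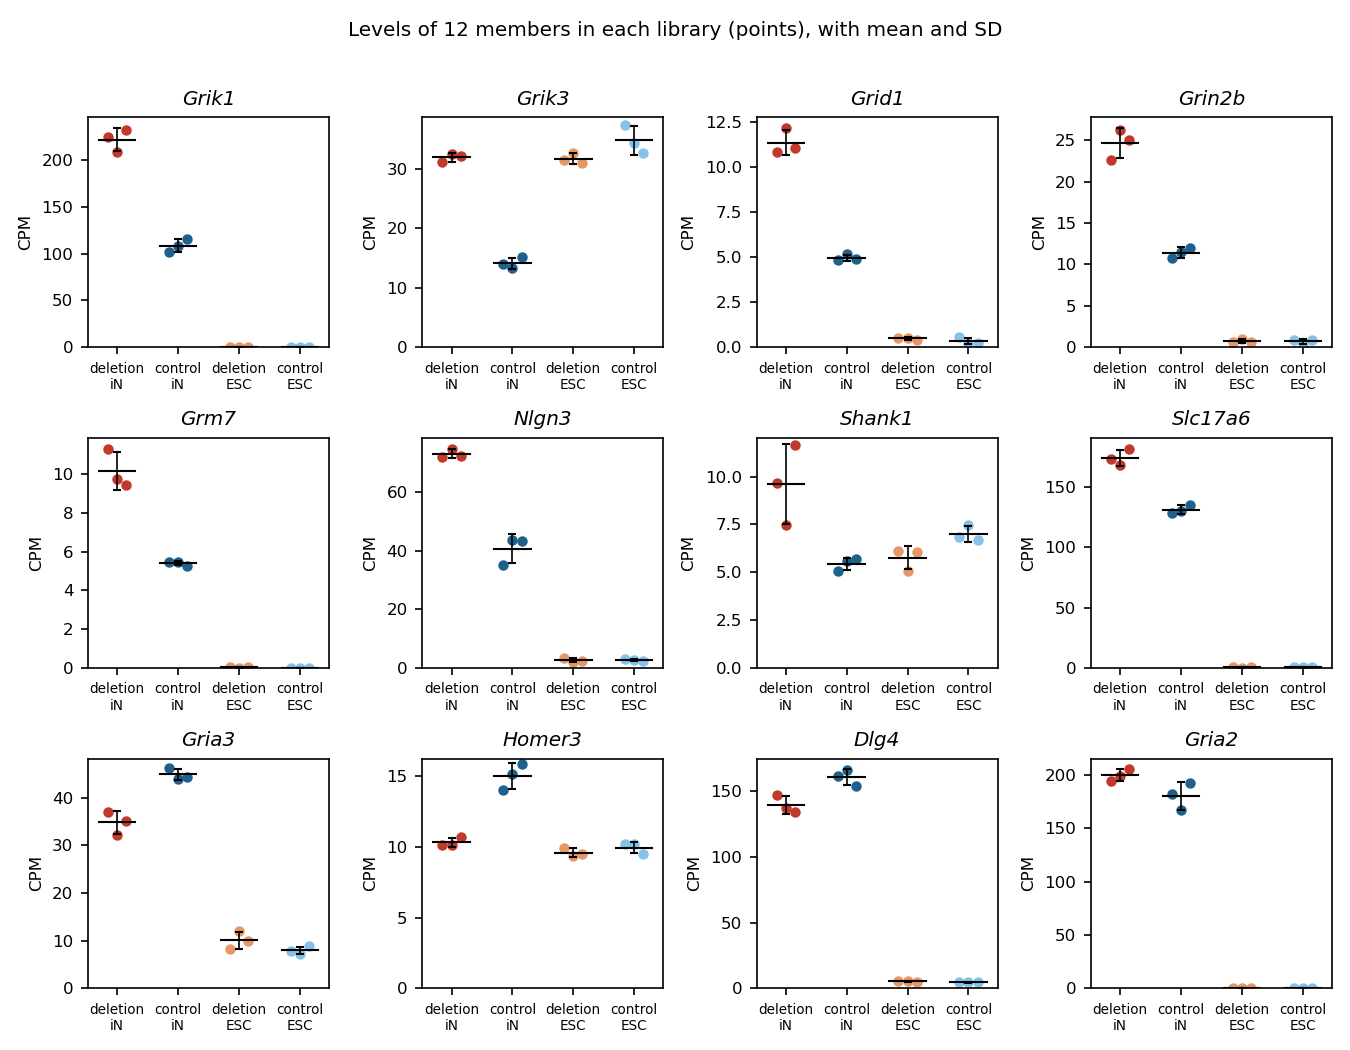
CPM (y axes, from 0) of 12 genes in each library, with groups in the order deletion iN, control iN, deletion ESC and control ESC; lines and bars give the mean and SD of 3 libraries. Grik3 is at 31.1 to 32.6 CPM in deletion iNs and 13.3 to 15.2 CPM in control iNs, and Grik1, Gria2 and Slc17a6 are close to 0 in both ESC groups.

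All 3 Shank genes, which encode the deep scaffold of the postsynaptic density, rose in deletion iNs. Shank1 had 9.64, 7.49 and 11.7 CPM in deletion iNs and 5.09, 5.57 and 5.69 CPM in control iNs. The rise of 0.82 ± 0.16 (edgeR adjusted p = 0.00131) came with a wide spread among the deletion libraries, yet none reached down to the control range. Shank2 had 43.1, 39.8 and 41.5 CPM in deletion iNs, against 31.8, 32.8 and 29.4 CPM in control iNs (0.41 ± 0.07, edgeR adjusted p = 3.69e-04). Shank3, the most abundant of the family per length, had 54.6, 50.6 and 52.4 CPM in deletion iNs and 44.4, 46.7 and 47.5 CPM in control iNs. Its small rise of 0.19 ± 0.06 (edgeR adjusted p = 0.0292) was lost in 8 of 12 alternative settings: DESeq2, no filter on low counts, the replicate block, the fit of all 12 libraries, and without control iN replicate A or B or deletion iN replicate A or C (adjusted p up to 0.121).

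The Dlg genes, whose guanylate kinase-like proteins anchor receptors, split. Dlg2 had 109.5, 104 and 109 CPM in deletion iNs against 73.7, 72.2 and 73.4 CPM in control iNs, a clear rise of 0.56 ± 0.05 (edgeR adjusted p = 3.17e-06). Dlg4, which encodes the main scaffold of this family at mature excitatory synapses, had 147, 137 and 134 CPM in deletion iNs and 161, 166 and 154 CPM in control iNs. It was lower by a small amount, -0.20 ± 0.06 (edgeR adjusted p = 0.0154), and the call was lost without deletion iN replicate B or C (adjusted p 0.0580 and 0.0880). Dlg3 had 22.7, 24.5 and 21.4 CPM in deletion iNs and 23.2, 24.8 and 25.6 CPM in control iNs (-0.10 ± 0.08, edgeR adjusted p = 0.388), and the ranges overlap. Dlg1 was not called either, at 19.3 to 24.8 and 19.6 to 22.5 CPM. Per length, Dlg2 made up 25.2% ± 1.58 of the Dlg TPM in deletion iNs and 17.04% ± 1.84 in control iNs, and Dlg4 61.97% ± 2.41 and 70.6% ± 2.09 (SD, n = 3 each). In both groups Dlg4 stayed the most abundant Dlg gene per length.

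Of the Dlgap genes, which link Dlg to Shank, Dlgap2 alone passed. It had 54.8, 45.6 and 49.8 CPM in deletion iNs and 28.6, 28.8 and 31.4 CPM in control iNs, a rise of 0.76 ± 0.07 (edgeR adjusted p = 3.61e-06). Dlgap4, the most abundant per length, had 133, 127 and 129.5 CPM in deletion iNs and 126, 135 and 128 CPM in control iNs, with an estimate of 0.00 ± 0.05. Dlgap1 was just outside the threshold at 0.17 ± 0.06 (edgeR adjusted p = 0.0511), with 57.5 to 58.6 CPM in deletion iNs and 47.6 to 55.1 CPM in control iNs, and Dlgap3 gave 0.13 ± 0.07 (edgeR adjusted p = 0.218).

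The Homer genes moved in opposite directions. Homer2 had 112, 115 and 118 CPM in deletion iNs and 103, 101 and 100.5 CPM in control iNs (0.19 ± 0.05, edgeR adjusted p = 0.0181), a rise that was lost without control iN replicate B or C or deletion iN replicate C (adjusted p up to 0.0950). Homer3 had 10.2, 10.1 and 10.7 CPM in deletion iNs, against 14.1, 15.2 and 15.8 CPM in control iNs. This was the largest fall of the 39 genes, -0.54 ± 0.10 (edgeR adjusted p = 8.85e-04), and the lowest control library stood well above the highest deletion library. Homer1, the most abundant of the 3 per length in control iNs, had 56.8, 59.8 and 62.6 CPM in deletion iNs and 69.9, 58.1 and 66.3 CPM in control iNs and was not called (-0.11 ± 0.07, edgeR adjusted p = 0.270).

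Neuroligins are postsynaptic adhesion proteins that bind presynaptic neurexins. Nlgn3, found at excitatory and inhibitory synapses, had 72.2, 74.9 and 72.3 CPM in deletion iNs and 35.1, 43.7 and 43.3 CPM in control iNs. It rose by 0.84 ± 0.07 (edgeR adjusted p = 1.25e-06). Nlgn1, the member typical of excitatory synapses, had 51.3, 51.7 and 51.8 CPM in deletion iNs, against 41.6, 43.8 and 42.2 CPM in control iNs (0.28 ± 0.06, edgeR adjusted p = 0.00193). Its deletion libraries were within 1 CPM of each other and all above the controls. Nlgn2, the member typical of inhibitory synapses and the most abundant per length, had 167, 149 and 159 CPM in deletion iNs and 141, 151 and 159 CPM in control iNs. Here the groups overlap and the difference was not called (0.08 ± 0.06, edgeR adjusted p = 0.389).

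The authors' deposited table of the same comparison held 39 of the 40 genes and called 23 at an adjusted p under 0.05, 20 higher and 3 lower. All 23 were also called here, and Grik2 and Shank3 were called here only. Both tests used the same libraries, so they are not independent. The authors' calls over all genes were not counted. DESeq2 run here on these libraries called 3300 of 15777 genes, 1483 higher and 1817 lower.

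A second list, of 63 other genes of the excitatory synapse, was counted for context. Of its 58 genes tested in iNs, 19 were higher and 6 lower in deletion iNs, so 43.1% were called, against 25.6% of all genes (12.4% higher and 13.3% lower). The median log2 fold change was 0.12, against 0.00 over all genes. Among the higher genes were Shisa9 (1.18 ± 0.12) and Gsg1l (0.77 ± 0.10), which encode auxiliary subunits of AMPA receptors, Lrrtm2 (1.12 ± 0.08), an adhesion partner of neurexins, and Camk2a (0.63 ± 0.08), the kinase of synaptic plasticity. The lower genes included Nptx2 (-1.35 ± 0.07), a secreted pentraxin that clusters AMPA receptors, Cacng3 (-0.99 ± 0.24), another AMPA receptor auxiliary subunit, and Arc (-0.82 ± 0.19), an activity-induced gene that promotes AMPA receptor removal. Adgrl2, a latrophilin of synaptic adhesion, was also lower (-0.45 ± 0.05). Auxiliary subunits of the same receptor were thus found in both directions.

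In ESCs the question is whether these genes differed between the genotypes before neurons form. Of the 40 genes, 25 passed the filter on low counts there and 0 of these were called, against 1.91% of all 16185 genes, 1.37% higher and 0.544% lower (edgeR quasi-likelihood test with Benjamini-Hochberg adjustment). At an unadjusted p under 0.05 there were 4. The 1.91% is for adjusted p, and the share of all genes at the unadjusted threshold was not counted. DESeq2 also called none, against 343 of 11544 genes. Libraries of the same replicate letter deviated together in this comparison, and with the letter as a block 2 genes were called, both lower, against 6.3% of all genes. They were Dlgap3 (log2 fold change -0.44, edgeR adjusted p = 0.0331 with the block and 0.0737 without it) and Homer1 (-0.18, edgeR adjusted p = 0.0454 with the block and 0.286 without it). Dlgap3 had 7.12, 6.69 and 5.76 CPM in deletion ESCs and 8.95, 8.75 and 8.58 CPM in control ESCs, with no overlap, and the authors' deposited table called it lower as well. Homer1 had 43.4, 47.2 and 49.7 CPM in deletion ESCs, against 49.7, 49.5 and 58.4 CPM in control ESCs, and these ranges overlap by a narrow margin. The median over the 25 was -0.01, against 0.00 over all genes.

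Between cell types, most of these genes were higher in iNs. In the comparison of control iNs with control ESCs, 89.0% of all 17247 genes tested were called, 43.9% higher and 45.1% lower, so a call carries little weight and sizes are given instead. Of the 25 genes that also passed the filter within ESCs, 21 were higher and 4 lower in control iNs. In deletion iNs against deletion ESCs 21 of the same 25 were higher and 2 lower, with 89.4% of all 17524 genes called, 44.6% higher and 44.9% lower. The rest passed the filter through their iN counts, so no count is given for them. Gria2 had 182, 167 and 192 CPM in control iNs and 0.0952, 0.0604 and 0.0533 CPM in control ESCs, or 2, 1 and 1 counts. Grm3 and Grm7 had 0 counts in every control ESC library, which makes them at least 825-fold and at least 102-fold higher in control iNs against a floor of 3 counts over the group. Nlgn1 had 2277 counts over the control iN libraries and 2 over the control ESC libraries, a ratio of 1202 with a 95% counting interval of 333 to 9926, which covers counting error only. In deletion cells Grik1 had 12964 counts over the iN libraries and 3 over the ESC libraries, a ratio of 4332 with a 95% counting interval of 1482 to 21010.

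A few genes were already substantial in ESCs. Dlg1, whose protein also serves epithelial polarity, had 19.6, 22.1 and 22.5 CPM in control iNs against 149, 154 and 152 CPM in control ESCs, a difference of -2.83 ± 0.07. In deletion iNs it had 19.3, 23.4 and 24.8 CPM, against 153, 156 and 159 CPM in deletion ESCs (-2.81 ± 0.08). Both differences passed with an edgeR adjusted p of 5.02e-13 and 2.52e-12. Dlg3 was lower in iNs of both genotypes (-0.48 ± 0.08 in deletion cells and -0.27 ± 0.08 in control cells). Shank1 was lower in control iNs than in control ESCs (-0.36 ± 0.13, edgeR adjusted p = 0.0179), a call that was lost without control iN replicate A or control ESC replicate B and with DESeq2. In deletion cells it was higher in iNs than in ESCs (0.72 ± 0.16). Grik3 was lower in control iNs than in control ESCs (-1.31 ± 0.08), whereas in deletion cells the difference was not called (edgeR adjusted p = 0.945), with 31.1 to 32.6 CPM in deletion iNs and 30.9 to 32.8 CPM in deletion ESCs.

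Per length, the makeup of several classes differed between the cell types. Dlg1 made up 6.61% ± 0.417 of the Dlg TPM in control iNs and 79.1% ± 1.47 in control ESCs, and Dlg4 made up 70.6% ± 2.09 and 4.95% ± 1.11 (SD, n = 3 each). Among AMPA receptors, Gria3 held 11.3% ± 0.478 in control iNs and 63.9% ± 3.66 in control ESCs, with Gria2 and Gria4 the main genes of iNs at 45.8% ± 1.68 and 42.7% ± 1.29. The kainate class had Grik3 at 2.13% ± 0.135 in control iNs and 50.3% ± 0.885 in control ESCs. Vesicular transport also differed: Slc17a7 held 33.1% ± 2.14 in control iNs and 82.8% ± 5.24 in control ESCs, where both transporters were low. In ESCs the shares of NMDA and metabotropic receptors rest on few counts.

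**Figure D3:**
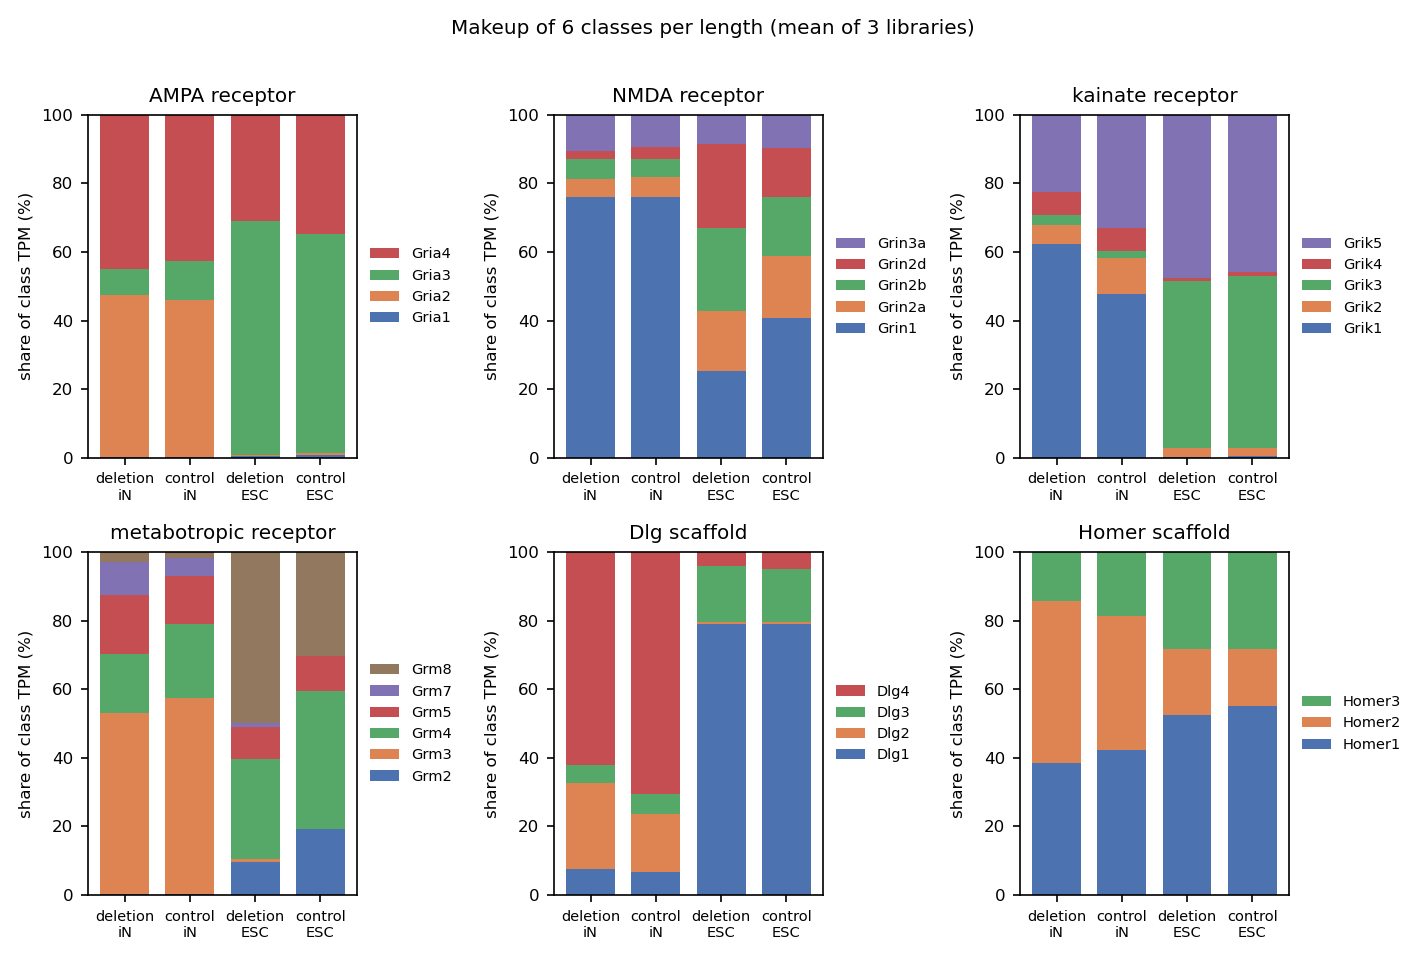
Share of each gene in the summed TPM of its class (y axis, %; stacked bars, mean of 3 libraries) for deletion iNs, control iNs, deletion ESCs and control ESCs. Grik1 takes 62.4% of the kainate receptor TPM in deletion iNs and 47.7% in control iNs, and Dlg1 gives way to Dlg4 in both iN groups.

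Whether the log2 fold change of deletion over control differed between neurons and stem cells was tested as an interaction over all 12 libraries. Of 39 genes tested, 10 passed, 7 in the positive and 3 in the negative direction, so 25.6% were called, against 13.5% of all 18299 genes, with 5.01% positive and 8.5% negative (edgeR quasi-likelihood test with Benjamini-Hochberg adjustment). Only 25 of the 39 also passed the filter on low counts within ESCs, and the other 14 entered through their iN counts. Among the 25, 9 passed, 6 positive and 3 negative, and the call outside them was Slc17a6. A positive difference means a higher log2 fold change in iNs than in ESCs. Grik3 had the clearest one, 1.31 ± 0.10 (edgeR adjusted p = 6.56e-07): deletion exceeded control in iNs, while ESCs had 31.4, 32.8 and 30.9 CPM in deletion and 37.5, 34.4 and 32.7 CPM in control libraries. Shank1 gave 1.09 ± 0.21 (edgeR adjusted p = 0.00284), with 6.13, 5.08 and 6.07 CPM in deletion ESCs and 6.85, 7.49 and 6.66 CPM in control ESCs, so that deletion libraries were below control libraries in ESCs and above them in iNs. Gria3 was the reverse case, -0.70 ± 0.15 (edgeR adjusted p = 0.00663), at 8.30, 11.98 and 9.84 CPM in deletion ESCs and 7.85, 7.25 and 8.80 CPM in control ESCs. Dlgap3 gave 0.55 ± 0.13 (edgeR adjusted p = 0.0104). In the main fits it was called neither in ESCs, where the deletion libraries were lower, nor in iNs. These 4 genes passed in all 17 alternative settings.

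The other 6 calls were each lost in at least 1 of the 17. Nlgn3 (0.83 ± 0.22) was lost without control ESC replicate A or deletion ESC replicate B or C. Shank2 (0.64 ± 0.17) was lost without control ESC replicate C or deletion ESC replicate A or C. Dlg4 (-0.41 ± 0.10) was lost without control ESC replicate A, deletion ESC replicate B or deletion iN replicate B, and Homer3 (-0.49 ± 0.12) without deletion iN replicate B. Grin1 (1.13 ± 0.35, edgeR adjusted p = 0.0444) was lost with the replicate block and without any 1 library other than deletion ESC replicate B, whose removal gave 1.73. Its ESC libraries held 5, 14 and 6 counts in deletion and 17, 9 and 10 counts in control cells. Slc17a6 (1.29 ± 0.38, edgeR adjusted p = 0.0337) had 7, 4 and 8 counts in deletion ESCs and 8, 7 and 19 counts in control ESCs. It was lost without deletion ESC replicate A or B, control iN replicate B, deletion iN replicate C or control ESC replicate C, the highest of its ESC libraries, without which it was 0.70. Of the 63 other excitatory synapse genes, 60 were tested and 6 were higher and 4 lower in this test. So 16.7% were called, near the 13.5% of all genes (5.01% positive and 8.5% negative). Only 41 of the 63 passed the filter on low counts within ESCs. The higher genes included Cbln1 (0.93 ± 0.23) and Iqsec2 (0.56 ± 0.17). Cbln4 (2.37 ± 0.64) was also higher, but it did not pass that filter and entered through its iN counts. On the other side were Nptx2 (-1.22 ± 0.10), Arc (-1.05 ± 0.19) and Adgrl2 (-0.56 ± 0.06).

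**Figure D4:**
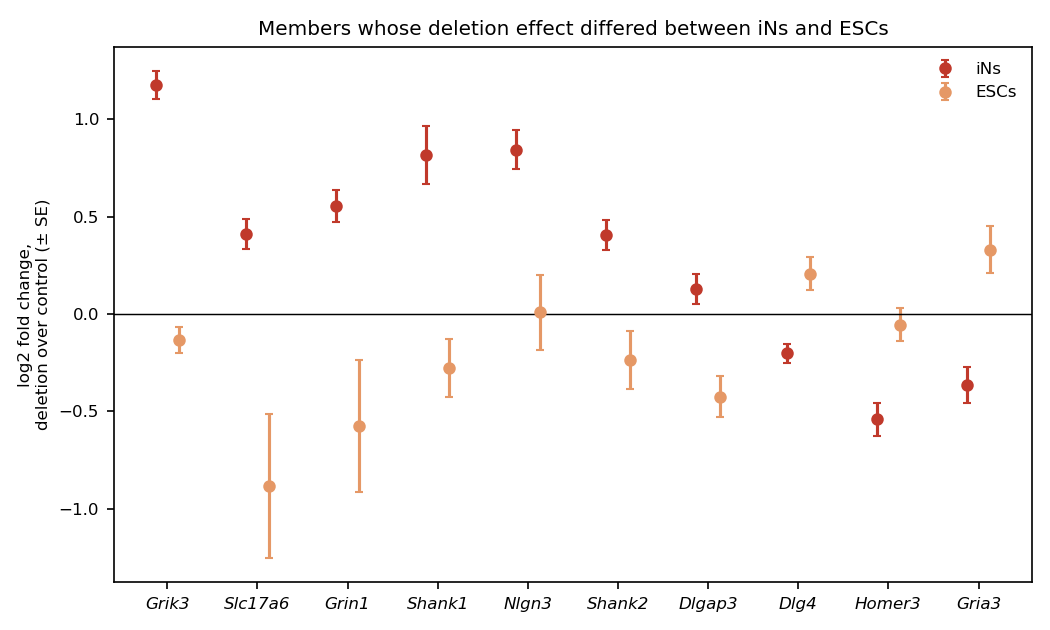
Log2 fold change of deletion over control (y axis; bars, SE) in iNs (red, left of each pair) and in ESCs (orange, right), from 1 fit of all 12 libraries, for the 10 genes whose difference passed. Grik3 and Shank1 are above 0 in iNs and below 0 in ESCs, and Gria3 and Dlg4 the other way round.

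The CLIP data ask which of these RNAs Ago2 occupied in iNs at sites that pair with cluster microRNAs. Values for each region are the authors', as log2 folds of the HA-Ago2 immunoprecipitate over that of untagged Ago2 or over its own input, with the replicates not kept apart. Of 22400 distinct regions, 51 lay within the spans of 19 of the 40 genes. Of these 51, 45.1% were above the untagged control, against 42.9% of all regions, and 17.6% were at least 2-fold above both untagged Ago2 and input, against 17.5%. Regions matched by the authors to a cluster microRNA were present in 4 of the 40 genes, against 3.84% of all genes tested in iNs. With matched regions at least 2-fold over untagged Ago2, a setting chosen after seeing the data, 1 gene remained, Slc17a6, against 2.42% of all genes.

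Slc17a6 (chr7:51621830-51671126 on mm10, plus strand) held 7 regions, all above the untagged control and 6 of them at least 2-fold above both controls. All lay in the last stretch of the gene, and 3 were matched. The region chr7:51670377-51670431, 695 bases before the annotated gene end, was matched to miR-299-3p by an 8-base seed match and had a log2 fold of 3.05 over untagged Ago2 (-log10 p 4.56) and 2.87 over input (-log10 p 8.23). The region chr7:51670664-51670698, 428 bases before the end, was matched to miR-409-3p, the most abundant of the 7 microRNAs, at 2.41 over untagged Ago2 (-log10 p 2.35) and 3.40 over input. Between them, chr7:51670494-51670525 was matched to miR-376b-5p and miR-376c-5p, whose seeds are the same, at 1.58 and 1.54. An unmatched region, chr7:51670259-51670306, was at 2.93 over untagged Ago2 and 3.92 over input. Slc17a6 RNA was 1.33-fold higher in deletion iNs, as given above.

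The matched regions of the other 3 genes had log2 folds of only -0.56 to 0.46 over untagged Ago2. Nlgn2 (chr11:69823123-69837784, minus strand) held 13 regions, of which chr11:69824743-69824785, 1620 bases before the gene end, was matched to miR-495-3p at 0.13 over untagged Ago2 and 1.06 over input. Its 4 listed seed matches start 4 bases apart and overlap each other, since the match to this seed overlaps itself at that distance, so they cover a single repeat. Dlg3 (chrX:100767411-100818410, plus strand) held 1 region, chrX:100816375-100816417, matched to miR-300-5p at -0.56 over untagged Ago2 and 2.72 over input. In Dlg4 (chr11:70017203-70045535, plus strand), chr11:70045416-70045464, 71 bases before the gene end, was matched to miR-3072-3p at 0.46 over untagged Ago2 and 0.94 over input, with a seed match that overlaps the region by 1 base. Nlgn2 and Dlg3 RNA were not called in deletion iNs and Dlg4 RNA was lower. The annotation used here gives gene spans only, so exons and untranslated regions were not assigned.

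**Figure D5:**
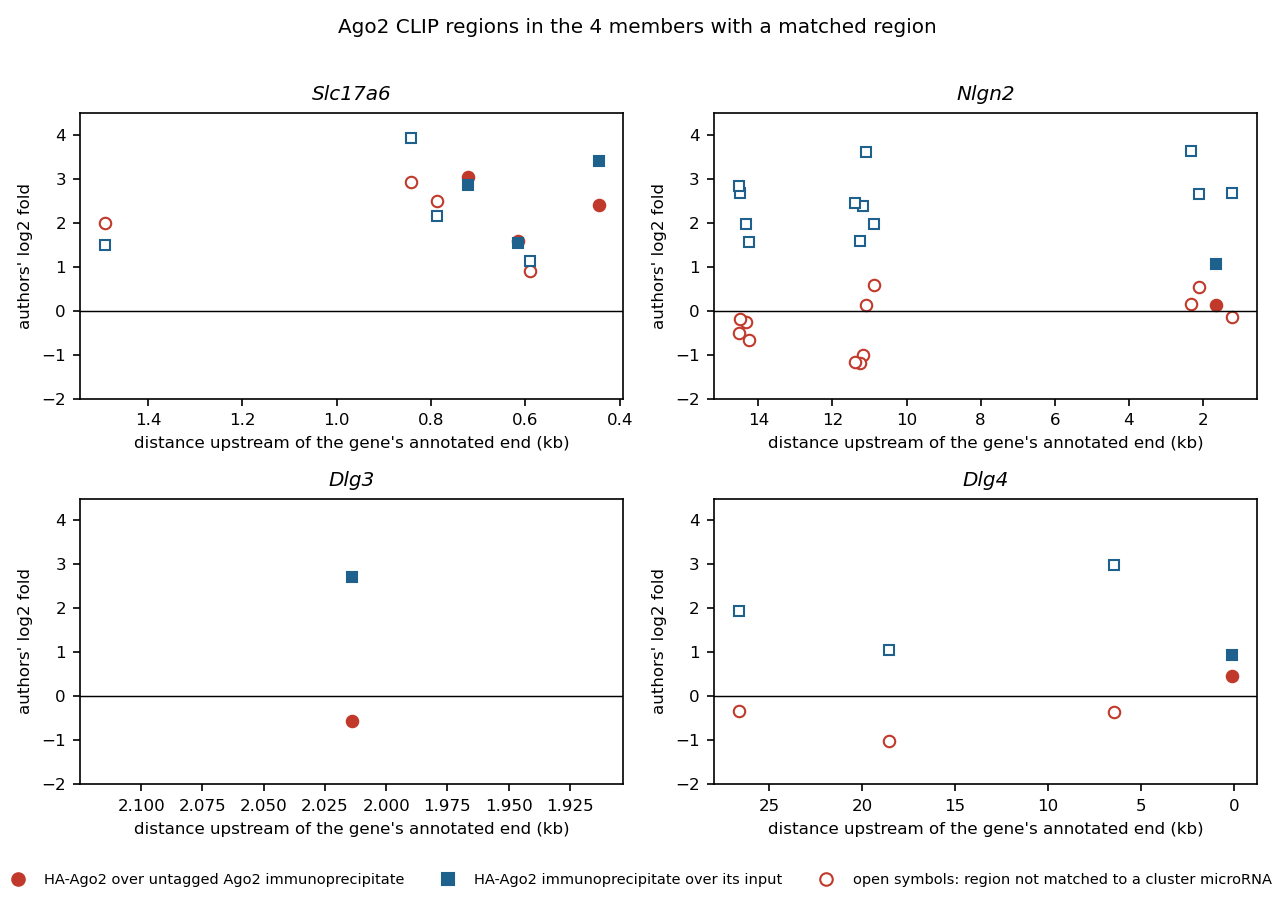
The authors' log2 fold of each Ago2 CLIP region (y axis; red circles, HA-Ago2 over untagged Ago2 immunoprecipitate; blue squares, over input) against its distance before the annotated gene end (x axis, kb), in the 4 genes with a matched region; filled symbols are matched regions. The 7 regions of Slc17a6 are above 0 on both measures, while most regions of Nlgn2 and Dlg4 and that of Dlg3 are above input and near or below untagged Ago2.

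Apart from Slc17a6, regions at least 2-fold above both controls were listed in Slc17a7, Grm5 and Dlgap3, with 1 each and no cluster match. Their p-values over untagged Ago2 were weak. The Slc17a7 and Grm5 regions, chr7:45171741-45171744 and chr7:87835309-87835312, have the same values, 1.58 over untagged Ago2 at a -log10 p of 0.204, and the Dlgap3 region had 1.31 at a -log10 p of 0.746. No region was listed within the spans of Gria1, Gria3, Gria4, Grin2b, Grin2d, Grin3a, Grid1 or any kainate receptor gene other than Grik5. The same held for Grm2, Grm3, Grm4, Grm7, Shank2, Dlg2, Dlgap1, Dlgap2, Homer2 and Nlgn1. These include genes called in deletion iNs and genes that were not. Other genes called in deletion iNs did hold regions, among them Grin1, Grm5, Shank1, Nlgn3 and Grm8, the gene with the largest RNA fold. Over untagged Ago2 the highest log2 fold was only -0.27 in Grm8 and -0.09 in Shank1. It was 0.58 in Grin1 (-log10 p 0.212) and 1.58 in Grm5 and Nlgn3 (-log10 p 0.204 each). A gene with no region in these lists is not shown to lack Ago2.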

How the data were processed

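RNA-seq and small RNA-seq were measured in 12 libraries each (3 per group), and Ago2 CLIP in 8. Per the submitters' processing notes, cutadapt 1.4.2, STAR 2.4.1d, RSEM 1.2.30, SAMtools, DESeq2 and the mouse build mm10 were used. The annotation release and the strand setting are not given in the sources used here, so reads of overlapping or antisense genes cannot be told apart.

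The authors deposited RSEM expected counts (estimated counts, not scaled to depth), posterior mean counts and TPM per gene. Tables of the authors' own comparisons give, per gene or microRNA, adjusted p-values, log2 fold changes and mean normalised counts (a signal). MicroRNA names were joined to the accessions of the deposited counts by the mean normalised count, which had to match to within a relative 1e-08; microRNA counts are rounded posterior means. The authors' CLIP lists give a log2 fold and a −log10 p per region, with replicates not kept apart.

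Expected counts were rounded to whole numbers for the quasi-likelihood test of edgeR 4.0.16 (R 4.3.3), after TMM scaling and removal of low genes by filterByExpr (minimum count 10), with p-values adjusted by Benjamini-Hochberg over all genes tested and a threshold of 0.05. Only the groups compared entered each fit, and all 12 libraries the interaction. The test was checked on simulated counts. CPM per library used TMM over all 12 libraries. Between-gene comparisons used TPM. Alternatives were DESeq2 1.42.0, its size factors in edgeR, no filter, posterior mean counts, the replicate letter as a block, all 12 libraries, and each library left out.

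The genes and lists were chosen with earlier results of these data known. Values per library are given for genes called in deletion iNs against control iNs, genes with a matched CLIP region, and the gene of each class with the highest TPM in control iNs; other excitatory synapse genes were named by size of change, at most 4 per direction in that comparison and 3 elsewhere. The labels do not say that replicates are separate cultures, so p-values measure only the spread between libraries. Libraries with the same letter deviated together in ESCs (correlations of deviations between genotypes 0.348, 0.107 and 0.136 over genes) and not in iNs (-0.0491, 0.0176 and 0.0358).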

Additional observations from a re-analysis of the deposited data

Results flagged for a closer look

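For 10 genes the deletion's log2 fold change differed between iNs and ESCs at an edgeR adjusted p under 0.05 in the interaction test. The difference, iN minus ESC, was 1.31 for Grik3, 1.29 for Slc17a6, 1.13 for Grin1, 1.09 for Shank1, 0.83 for Nlgn3, 0.64 for Shank2 and 0.55 for Dlgap3. It was -0.70 for Gria3, -0.49 for Homer3 and -0.41 for Dlg4. The Neurog2 level differed in the same test by 1.36, and its part in these differences was not tested. Only Grik3, Shank1, Dlgap3 and Gria3 passed in all 17 alternative settings. Grin1 was lost in 12 of the 17 and Slc17a6 in 5, and Slc17a6 passed the filter on low counts only through its iN counts.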

How the results depend on the processing

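No called gene changed direction under the alternatives run; in deletion iNs against control iNs 5 uncalled genes (Gria1, Grin2d, Grm3, Dlg1 and Dlgap4) had estimates on both sides of 0. In deletion iNs against control iNs, leaving out each library gave 2 to 4 lower genes, the lowest without deletion iN replicate B, against 4. Over all genes these fits gave 1551 to 1994 lower genes, against 2128. The replicate block called 24 of the 39, and 3667 of all 16028 genes. In deletion ESCs against control ESCs, 0 genes were called by edgeR and 0 by DESeq2. At an unadjusted p under 0.05 edgeR gave 4, a threshold at which the share of all genes was not counted. There was 1 call with no filter on low counts (Dlgap3, lower) and 2 with the replicate block (both lower). Over all genes that comparison called 309, against 504 with no filter, 1019 with the replicate block and 90 to 315 with a library left out. In the interaction, leaving out each library gave 4 to 9 higher genes, the lowest without deletion ESC replicate C, and 1 to 3 lower genes, the lowest without deletion iN replicate B. Over all genes these fits gave 647 to 860 higher and 907 to 1566 lower genes, against 917 and 1556. The replicate block called 9, and 2120 of all 18299 genes. Of the genes with a matched CLIP region, 0 remained with regions at a log2 fold of at least 3 and a −log10 p of at least 5. The share of all genes at that setting was not counted, so this 0 has nothing to be set against. With regions at a log2 fold of at least 1 over untagged Ago2, a setting chosen after seeing the data, 1 remained, against 2.42% of all genes. The causes were not tested. Counts under about 20 per library, as for Grin1, Slc17a6 and Grm8 in some groups, limit precision.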
